A study of Sus scrofa with 3 samples.

Results

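miR-33a was examined across small RNA libraries from 3 porcine skeletal muscles. These are the peroneal longus (PL), the psoas major muscle (PMM), and the longissimus dorsi muscle (LDM), taken by the study as its red, intermediate, and white fiber types, respectively. All came from female Landrace pigs aged 210 days, and each muscle is represented by 1 library. The PL library was made from pooled RNA of 3 pigs, and the PMM and LDM data came from an earlier study of the same pigs, for which pooling is given only in a protocol text that the labels repeat for all libraries. The batch and the difference of PL from PMM and LDM therefore cannot be told apart. The rows of miR-33a were found by the names of the mammalian precursors to which the table of conserved miRNAs matches each sequence. Of the 152 miRNAs listed, 1 has the number 33a, the 5p arm, named here miR-33a-5p. Its match rests on 1 precursor name, that of the dog. The 3p arm has no row, and miR-33b has none either. The separate tables of porcine miRNAs already in miRBase and of predicted ones were not used here.

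miR-33a is encoded within an intron of SREBF2 in mammals, the gene of a transcription factor that turns on cholesterol synthesis and uptake. In human and mouse cells miR-33 represses ABCA1, a pump that exports cholesterol, together with CPT1A, CROT, and HADHB, which act in the oxidation of fatty acids. A miRNA finds its targets mainly through its seed, the bases near its 5′ end. Red fibers rely largely on mitochondrial oxidation for their energy, whereas white fibers rely more on glycolysis.

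The listed sequence of miR-33a-5p is 21 nt long with a GC content of 42.9%. It is shown with the seed (bases 2 to 8) in capitals, because the seed decides which targets a miRNA can share with others, and its listed precursor is shown with the mature part in capitals.
miR-33a-5p: gTGCATTGtagttgcattgca
miR-33a precursor: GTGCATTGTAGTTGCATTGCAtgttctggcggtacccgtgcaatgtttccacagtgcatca
The precursor is 61 nt long, and the mature sequence matches its bases 1 to 21 exactly. An exact match was found for 106 of the 152 rows (69.7%). In the table the authors' capitals mark the first 20 bases of this precursor, so the listed miRNA is 1 base longer. The precursor is placed on the plus strand of an unplaced scaffold of the pig genome (Sscrofa10.2) from 30048 to 30100. The scaffold is not named in the table. That span of 53 bases is 8 shorter than the precursor, and span and length were equal for 25 of 135 precursor entries. For conserved miRNAs the study mapped precursors of other mammals to the pig genome, and only the dog precursor is named here. Whether the printed precursor is the dog or the pig sequence was not looked up. It and its fold should therefore not be read as those of the pig. A genome of this build was not used here, so whether the locus lies in a gene, an exon, or an intron was not looked up, and the distance to other listed miRNAs could not be given.

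The 7 seed bases TGCATTG occur again in the miRNA at its bases 13 to 19. Of 145 unique mature sequences in the table, 3 hold their own seed again further along, and miR-33a-5p is the 1 that holds TGCATTG at all (same strand, 0.69% of the sequences). No other listed sequence shares its bases 2 to 7. The conserved table thus has no seed family around miR-33a-5p. A predicted fold of the listed precursor (RNAfold) had 22 base pairs and a free energy of -24.7 kcal/mol, and 18 of the 21 mature bases were paired.

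**Figure D1:**
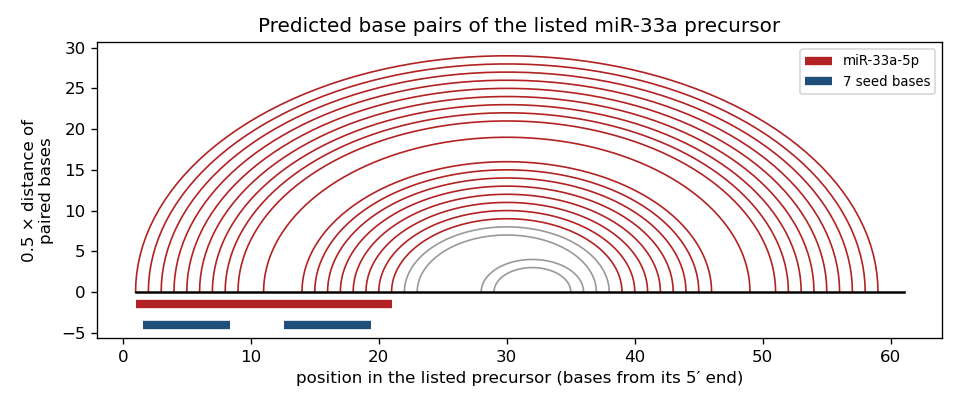
Predicted base pairs of the listed miR-33a precursor. The x axis is the position in bases from the 5′ end, each arc joins a pair of bases, the y axis is 0.5 times their distance in bases, red arcs touch the mature miRNA, the red bar marks bases 1 to 21, and the blue bars mark the 7 seed bases at 2 to 8 and 13 to 19. The mature sequence forms the 5′ side of a single stem.

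miR-33a-5p was lowest in the red muscle and highest in the white one, with the intermediate muscle between them. LDM had 286 of its reads, PMM 180, and PL 32. Raw reads of the libraries came to 16.62 M for LDM, 18.46 M for PMM, and 9.17 M for PL. Scaled to 1 M of these (RPM), the level was 17.2 RPM in LDM, with an exact 95% Poisson interval of 15.3 to 19.3. It was 9.75 RPM in PMM (8.38 to 11.3) and 3.49 RPM in PL (2.39 to 4.93). The 3 intervals do not overlap. At the depth of PL, the smallest library, the level of PMM would correspond to 89.4 reads and that of LDM to 158. These intervals cover counting error only, since with 1 library a muscle no replicate checks the differences. Reads were not counted by molecule, so the intervals may be too narrow even for that error. In a whole muscle, fewer cells that hold miR-33a and less of it per cell cannot be told apart.

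**Figure D2:**
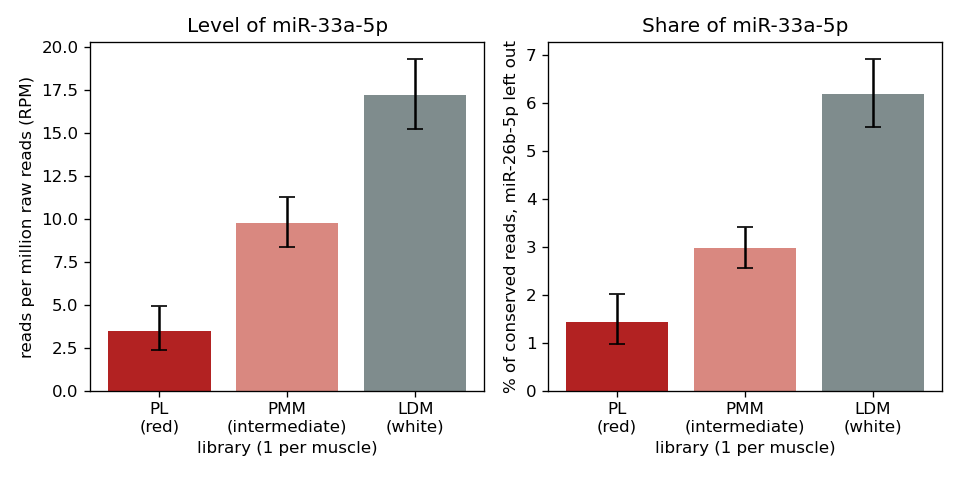
Level of miR-33a-5p (left, RPM) and its share of the conserved reads without miR-26b-5p (right, %) in the PL, PMM, and LDM libraries. Bars are single libraries and error bars are exact 95% intervals for counting error (Poisson on the left, Clopper-Pearson on the right). On both scales the order is PL, PMM, LDM, from 3.49 to 17.2 RPM and from 1.43% to 6.18%.

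Its place among the conserved miRNAs moved in the same order. By reads, miR-33a-5p ranked 20th in PL, 11th in PMM, and 5th in LDM among the 108 unique miRNAs with at least 3 reads over the libraries. Ranks and shares are within the conserved miRNAs alone, a small part of each library. Their reads came to 12463 in LDM, 16286 in PMM, and 23583 in PL, of 16.62 M, 18.46 M, and 9.17 M raw reads. Of the conserved reads miR-33a-5p made up 2.29% in LDM, with a 95% Clopper-Pearson interval of 2.04% to 2.57%. It made up 1.11% in PMM (0.950% to 1.28%) and 0.136% in PL (0.0928% to 0.192%). The most abundant conserved miRNA of every library was miR-26b-5p, with 667 reads for each read of miR-33a-5p in PL, 56.7 in PMM, and 27.4 in LDM. With miR-26b-5p left out, the share of miR-33a-5p was 6.18% in LDM (5.50% to 6.91%), 2.96% in PMM (2.55% to 3.42%), and 1.43% in PL (0.981% to 2.02%). The order of the libraries was the same with and without this abundant miRNA.

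The pairs of libraries were compared by the Audic-Claverie, the chi-squared 2 × 2, and Fisher's exact test over all 108 miRNAs, and a difference was called when each of the 3 gave a p under 0.001 after Bonferroni adjustment. These tests compare libraries, not muscles. miR-33a-5p was 2.79-fold higher in PMM than in PL (95% interval 1.91 to 4.21, adjusted p of Fisher's exact test = 3.5e-07). It was 4.93-fold higher in LDM than in PL (3.42 to 7.35, adjusted p of Fisher's exact test = 2.6e-23). Between LDM and PMM, which do not differ in the study that produced them, it was 1.76-fold higher in LDM (1.46 to 2.14, adjusted p of Fisher's exact test = 1.9e-07). All 3 differences were called. As background, 10.2% of the tested miRNAs were called higher in PMM than in PL, 8.33% higher in LDM than in PL, and 3.7% higher in LDM than in PMM. miR-33a-5p was also over 1.5-fold higher in LDM than in each other library, the fold that the study sets for enrichment, and it is among 4 of the 108 (3.7%) that were called and passed this fold in LDM. The study further limited its enriched miRNAs to those of high abundance, a limit that was not applied here and that miR-33a-5p, with 286 reads in LDM, does not reach.

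A higher level at each step, from PL to PMM and from PMM to LDM, was called for 2 miRNAs (1.85%), miR-33a-5p and miR-1-3p. With the summed conserved reads without miR-26b-5p as library total, miR-1-3p remained and miR-33a-5p did not, since its step from PL to PMM was then not called. In level alone, without a test, 16 of the 108 had the order PL, PMM, LDM. miR-1 is specific to skeletal and cardiac muscle, but the sequence of this row is not found exactly in its listed precursor. The study also names miR-1 among its abundant LDM-enriched miRNAs, drawn from known porcine ones that were not used here. The row described here is therefore not all of miR-1 in these libraries. This row had 1318 reads in LDM, 892 in PMM, and 44 in PL. For each read of miR-1-3p there were 0.727 reads of miR-33a-5p in PL, 0.202 in PMM, and 0.217 in LDM, so the pair kept a similar ratio in PMM and LDM and another in PL. This ratio does not depend on any library total.

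**Figure D3:**
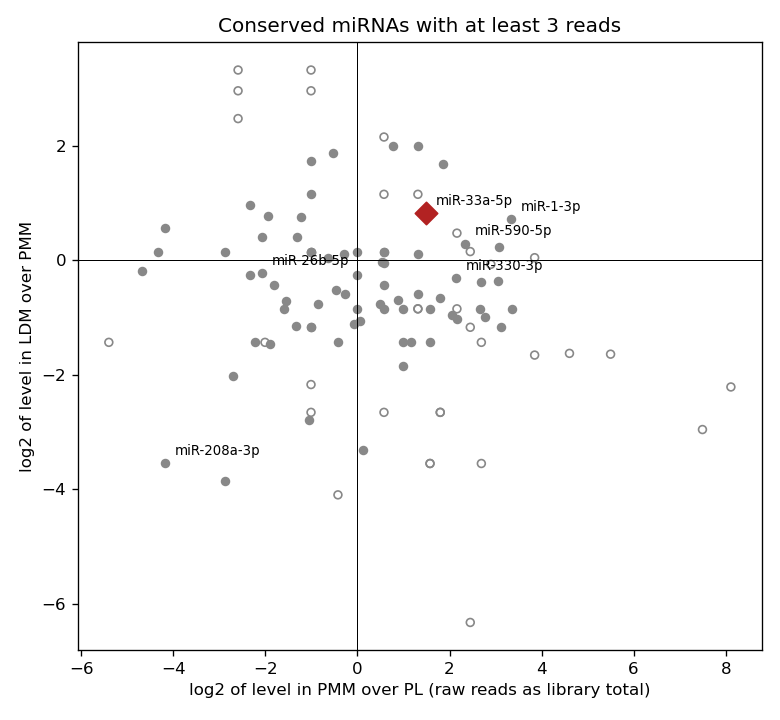
Each point is 1 of the 108 conserved miRNAs with at least 3 reads. The x axis is the log2 of the level in PMM over PL and the y axis that in LDM over PMM, open circles have no read in at least 1 library and were placed with 0.5 reads added in the affected pair, and the red diamond is miR-33a-5p. miR-33a-5p (1.48, 0.82) and miR-1-3p lie in the upper right, while miR-208a-3p lies in the lower left.

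The choice of library total changed the size of the folds. On the log2 scale miR-33a-5p was at 1.48 for PMM over PL, 2.30 for LDM over PL, and 0.82 for LDM over PMM, while the medians of the 108 miRNAs were 0.58, -0.019, and -0.67. Relative to these medians it was higher by 0.91, 2.32, and 1.49. For a given set of miRNAs this difference does not depend on the library total. Ratios above that of miR-33a-5p were seen for 34 miRNAs in PMM over PL, 21 in LDM over PL, and 15 in LDM over PMM, of which 9, 7, and 2 had at least 100 reads over the libraries. With the summed conserved reads without miR-26b-5p as library total, PMM over PL was no longer called (2.07-fold, largest adjusted p of the 3 tests, exact test included, = 0.0094). With all conserved reads it was 8.15-fold, since miR-26b-5p takes a larger part of these reads in PL than in PMM. It had 21348 of 23583 conserved reads in PL and 10208 of 16286 in PMM.

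**Figure D4:**
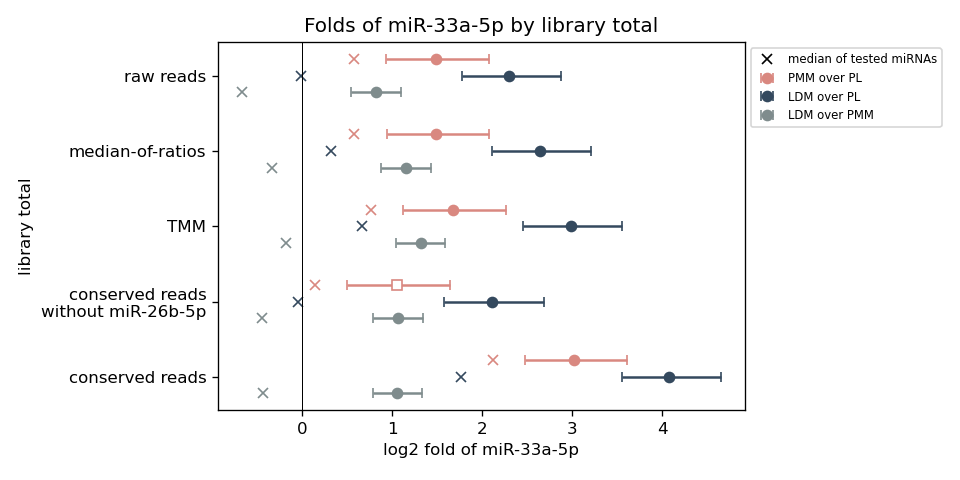
log2 folds of miR-33a-5p between pairs of libraries (x axis) under 5 library totals (y axis), with exact 95% intervals for counting error. Filled circles were called by all 3 tests, the open square was not, and crosses are the medians of the tested miRNAs. Every fold of miR-33a-5p lies above 0 and above its median, from 0.82 to 4.08.

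The miRNAs with the most similar pattern were sought by the Euclidean distance between log2 profiles over the 3 libraries (0.5 reads added, each profile centred on its mean) among 53 others with at least 20 reads. The 5 nearest were miR-590-5p (0.58), miR-1-5p (0.69), miR-3591-3p (0.76), miR-488-3p (0.77), and miR-330-3p (0.80), against a median distance of 2.23. The sixth was at 0.83, so the limit of 5 falls at no gap. These distances are descriptions over 3 points. The seed of the nearest is shown to set it beside that of miR-33a-5p.
miR-590-5p: gAGCTTATtcataaaagtacag
None of the 5 shares the seed of miR-33a-5p.

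miR-590-5p, on chromosome 3 from 11024985 to 11025078, was at 7.34 RPM in LDM, 6.01 RPM in PMM, and 1.20 RPM in PL, where 11 reads were listed. miR-330-3p had 134 reads in LDM, 185 in PMM, and 21 in PL. PL was called below PMM and LDM for both, as for miR-33a-5p. PMM and LDM were not called against each other, where miR-590-5p was 1.22-fold higher in LDM (0.936 to 1.59) and miR-330-3p was at 0.805-fold (0.639 to 1.01). The first interval overlaps that of miR-33a-5p (1.46 to 2.14) and the second lies below it. miR-1-5p, the other arm of miR-1, had 7, 35, and 34 reads in PL, PMM, and LDM, and was called in no pair. miR-3591-3p and miR-488-3p had 1 read each in PL and 18 each in LDM, so their profiles are loosely set.

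**Figure D5:**
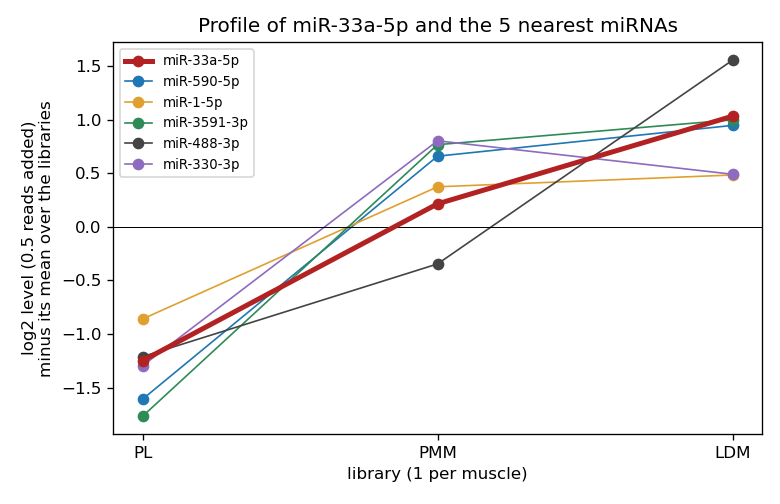
Profiles of miR-33a-5p (thick red line) and the 5 nearest miRNAs over PL, PMM, and LDM. The y axis is the log2 level with 0.5 reads added, minus its mean over the libraries. All 6 are lowest in PL. miR-330-3p is highest in PMM, and the other 5 in LDM.

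Other miRNAs known as regulators of cholesterol or fatty acids were looked up from a list of 30. Only 5 of these numbers are in the conserved table, with 8 mature miRNAs tested. None of the 8 was called in any pair of libraries. Over all tested miRNAs 12% were called in either direction between LDM and PMM, 23.1% between LDM and PL, and 21.3% between PMM and PL. The 8 had only 3 to 91 reads each over the libraries, and a call is hard to reach at such counts. Their lack of calls therefore does not show that their levels were equal. Their median log2 fold was -0.25 for PMM over PL, -1.12 for LDM over PL, and -0.44 for LDM over PMM, against the medians of all tested miRNAs given above. Their summed level was 3.61 RPM in LDM, 4.50 RPM in PMM, and 5.02 RPM in PL, from 60, 83, and 46 reads. The order of these sums changed with the library total. With TMM it was PL, PMM, LDM from lowest to highest, as for miR-33a-5p, and with all conserved reads PL was lowest and PMM highest.

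miR-223-3p, which limits cholesterol synthesis and uptake in human and mouse cells and is abundant in myeloid cells, had 36 reads in LDM, 41 in PMM, and 14 in PL. LDM over PL was 1.42-fold (0.747 to 2.85), an interval that lies below that of miR-33a-5p. miR-96-5p, from a cluster that SREBP-2 activates in mouse liver, had 10, 4, and 7 reads in PL, PMM, and LDM, and was at 0.386-fold in LDM over PL (0.125 to 1.12). miR-302a-3p, reported to repress ABCA1 in mouse macrophages, had 10, 13, and 12 reads, and its sequence is also listed for miR-302b-3p and miR-302d-3p. miR-302a-5p had 5, 5, and 2 reads. miR-301b-3p, which represses the LDL receptor and ABCA1 in human liver cells, had 1 read in LDM, 11 in PMM, and 5 in PL, at 0.110-fold in LDM over PL (0.00233 to 0.986).

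The tissue labels could be set against few markers. Of 7 muscle miRNAs, 2 numbers are listed, miR-1 and miR-208a. miR-208a-3p, which lies in an intron of the cardiac gene MYH6, had the opposite order to miR-33a-5p, at 0.0602 RPM in LDM, 0.704 RPM in PMM, and 12.9 RPM in PL. The 3 measured epithelial miRNAs of a list of 6 summed to 1.93 RPM in LDM, 4.23 RPM in PMM, and 0.981 RPM in PL. By member, miR-141-3p was lower in LDM than in PL (0.361 against 0.436 RPM), while miR-200b-3p and miR-200c-3p were higher. The reads in LDM and PL were 6 and 4 for miR-141-3p, 13 and 5 for miR-200b-3p, and 13 and 0 for miR-200c-3p. None of the 3 was called between PL and LDM. The 2 tested neural miRNAs, from a list of 4 numbers, summed to 21 reads in LDM, 187 in PMM, and 0 in PL. Nearly all of these were reads of miR-219-3p, with 21 in LDM and 181 in PMM. The immune list had miR-223 alone of its 4 numbers, with summed levels of 2.23 RPM in LDM, 2.28 RPM in PMM, and 1.64 RPM in PL. In PL the sums rest on few reads, 9 epithelial, 0 neural, and 15 immune. All 3 sums were lowest in PL under every library total tried. The epithelial and neural sums were highest in PMM under each of these, whereas the immune sum was higher in LDM than in PMM under each total but raw reads. Their part in the levels of miR-33a-5p was not tested. The erythroid, endothelial, and liver lists had no tested member among the conserved miRNAs. Of the listed markers, the study reports miR-126, miR-486, miR-133a, miR-208b, and miR-499 among known porcine miRNAs, which were not used here.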

How the data were processed

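The authors dropped reads that lacked the 3' adapter, fell outside 16 to 29 nt, or were junk, mapped the others by BLAST (version not given in the sources used here) to miRBase 19.0 precursors and to Sscrofa10.2, and deposited whole read counts, not normalized. The heading of the table says Sscrofa10 and that counts are of the most abundant sequences. Whether other isomiRs are included is not stated. A mark for no read (118 of 456 cells) was read as 0. Levels use the raw reads the study states as library totals, whereas the study normalized by mappable reads.

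Identical sequences were merged (145 unique), keeping the highest count, and the 108 with at least 3 reads were tested by the study's 3 tests (two-sided). Folds have exact binomial intervals. miRNAs were named by a rule: both arms of miR-33a, the 5 nearest profiles, seed matches, listed miRNAs within 1000000 bases, lipid list members with at least 10 reads, and the most abundant miRNA. miR-1-3p, miR-208a-3p, and the marker totals were added after their values were seen. The member and the lists were chosen with earlier results of these data known. Alternatives were 4 library totals, other minimums, unmerged rows, Benjamini-Hochberg adjustment, Fisher's exact test alone, and a fold threshold of 2. The list sums under other library totals were chosen after seeing the data. Python 3.11.15, numpy 2.4.6, scipy 1.17.1, matplotlib 3.10.9, and RNAfold 2.7.2 were used.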

Additional observations from a re-analysis of the deposited data

How the results depend on the processing

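No paired analysis was possible because PL, PMM, and LDM have 1 library each, and for the same reason none could be left out. The arms of miR-33a were not compared, since the 3p arm has no row. Under 9 alternatives, LDM over PL stayed called in 9 (log2 fold 2.11 to 4.08) and LDM over PMM in 9 (0.82 to 1.31). PMM over PL stayed called in 8 of 9 (1.05 to 3.03), and it was 1.05 and not called with the summed conserved reads without miR-26b-5p. Enrichment in LDM was lost with a fold threshold of 2 (0.82, that is 1.76-fold). With miR-26b-5p left out of the denominator, the shares were 1.43%, 2.96%, and 6.18% in PL, PMM, and LDM. Of the 5 nearest miRNAs, 5 were shared with 1 read as pseudocount and 3 with a minimum of 50 reads. The number of miRNAs called at both steps (2) was 4 with all conserved reads, 1 without miR-26b-5p (miR-1-3p, with miR-33a-5p lost), and 3 with Benjamini-Hochberg adjustment, and the number enriched in LDM (4) was 2 with a fold threshold of 2. Of miRNAs called between PL and PMM, 11 were higher and 12 lower in PMM, against 27 and 3 with all conserved reads and 8 and 17 without miR-26b-5p. For PL and LDM these were 9 and 16, against 22 and 6 with all conserved reads and 11 and 11 with TMM. For PMM and LDM they were 4 and 9, against 5 and 6 with size factors and 5 and 4 with TMM. Apart from the share of miR-26b-5p, the cause was not tested.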
